A study of Mus musculus with 12 samples.

Results

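Pappa2 and 9 other genes of the insulin-like growth factor (IGF) axis were followed across 12 RNA-seq libraries of mouse cortex. The members were taken by symbol: the proteases Pappa2 and Pappa, the ligands Igf1 and Igf2, the receptors Igf1r and Igf2r, and the binding proteins Igfbp2, Igfbp3, Igfbp5 and Igfbp6. All 10 were found among the 27179 genes of the count table, and all 10 were among the 15298 genes that passed the low-count filter. Pappa2 was chosen because it was lower in KO than in WT. That contrast is therefore given here as a description, without a test, and the tests concern MUT against WT and MUT against KO. These share the WT or the KO libraries with the contrast that led to the choice of Pappa2.

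The study compared 3 groups of 4 libraries, and both mutant groups lack the mouse progranulin gene Grn on both copies. MUT (Grn-/-;GRNmEx5, 272 to 309 days old) also carries GRNmEx5, a mutant allele in a humanized line that models a disease deletion of human GRN. KO (Grn-/-, 282 to 308 days old) carries no such allele. WT (Grn+/+) holds 1 library from 287 days of age and 3 from 375 days. By label the libraries are 3 female and 1 male in MUT, 2 and 2 in KO, and 1 female and 3 male in WT. The sources used here name neither a strain nor a pooling of animals, and human GRN transcripts were not analysed here.

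IGFs are small growth factors that signal through Igf1r, a receptor tyrosine kinase, while Igf2r takes up and clears Igf2. Most IGF outside cells is held by binding proteins. The pappalysins cut some of these: Pappa2 acts on Igfbp3 and Igfbp5, and Pappa mainly on Igfbp4, which frees the ligand. In brain, Igf1 is made by neurons and glia, and Igf2 comes largely from choroid plexus and meninges. Igf2r is also the cation-independent mannose 6-phosphate receptor, which carries new enzymes to lysosomes, the compartment to which progranulin is delivered.

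Library totals ranged from 16381221 to 20782195 counts. Values are in CPM (reads of a gene scaled to a common library total, with TMM factors). Grn measured 11.5 to 15.3 CPM in MUT and 10.8 to 14.0 CPM in KO, against 57.0 to 59.9 CPM in WT. The tissue label was met by Slc17a7, the vesicular glutamate transporter of cortical excitatory neurons, at 1262 to 1792 CPM over the 12 libraries, and all 12 excitatory cortical markers were tested. Some libraries stood apart from their groups. The level of 16 striatal neuron markers (mean log2 CPM centred on each gene) was 0.78, 1.72 and 2.69 in WT replicates 2, 3 and 4, those from 375 days. It was -0.74 to -0.38 in MUT, -0.92 to 0.23 in KO and -0.92 in WT replicate 1. Choroid plexus markers, 10 of 16 tested, had levels of 3.11 in MUT replicate 1, 3.44 in KO replicate 3 and 2.31 in WT replicate 4, against -1.52 to -0.39 in the other 9 libraries. Sex-linked transcripts ran opposite to the labelled sex in 12 of 12 libraries, which leaves the split used by the sex term as it is.

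Pappa2 (Entrez 23850, mm10 chromosome 1, 158711731 to 158957438, minus strand, 22 exon intervals) encodes pappalysin-2. The 250 bases before its start in RefSeq (GRCm38.p6, chr1:158958176-158958425, minus strand) are shown because Pappa2 is the gene the other results are set beside. Capitals mark CG dinucleotides:
Pappa2: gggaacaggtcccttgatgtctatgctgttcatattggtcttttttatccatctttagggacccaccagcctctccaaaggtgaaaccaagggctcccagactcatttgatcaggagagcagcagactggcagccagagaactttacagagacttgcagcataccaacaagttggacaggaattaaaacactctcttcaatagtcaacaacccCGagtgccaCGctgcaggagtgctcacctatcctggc
This window holds 2 CG dinucleotides, and 29% of the 32851 windows of the same length in the table hold 2 or fewer. The RefSeq start lies 737 bases upstream of the gene model used for counting. RefSeq windows were matched for 9 of the 10 members. The window before Igf1r, in contrast, holds 42 CG dinucleotides, and 99.3% of all windows hold that many or fewer. Over the windows at the starts of the counted models of the binding proteins, the windows held 14 for Igfbp2, 32 for Igfbp3, 10 for Igfbp5 and 7 for Igfbp6. These are descriptions of the windows, and promoter activity was not measured.

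Pappa2 was scarce in both Grn-null groups. Its reads numbered 15, 24, 13 and 17 in MUT replicates 1 to 4 and 28, 18, 11 and 12 in KO replicates 1 to 4, against 38, 89, 84 and 97 in WT replicates 1 to 4. As CPM this was 0.725, 1.27, 0.745 and 1.03 in MUT, 1.47, 0.943, 0.610 and 0.670 in KO, and 2.09, 4.95, 4.15 and 5.78 in WT. Every MUT and every KO library lay below every WT library, and the MUT and KO ranges overlapped. In these bulk samples, fewer cells that express a gene and less RNA per cell cannot be told apart.

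The group means were 0.943 ± 0.259 CPM in MUT, 0.923 ± 0.392 CPM in KO and 4.24 ± 1.58 CPM in WT (SD, n = 4 each). In MUT against WT the fitted log2 fold change of Pappa2 was -1.73 (SE 0.34, 95% interval -2.465 to -1.004). It ranked number 17 by p among the genes tested. It did not pass the threshold of 0.05 after Benjamini-Hochberg adjustment (edgeR quasi-likelihood test, adjusted p = 0.203). The WT libraries in this fit are those of the contrast Pappa2 was chosen on, so these values are not independent of the choice. DESeq2 called 52 of all 15298 genes in this comparison, and edgeR without WT replicate 1 called 1066 of 15480. WT replicates 2 to 4, left in that edgeR fit, are all from 375 days, labelled male and high in striatal markers. Pappa2 was among the genes called by DESeq2 (log2 fold change -1.74, adjusted p = 0.00234). It was also among those called by edgeR without WT replicate 1 (-2.12, adjusted p = 0.00861). Over all 24 other settings tried, the adjusted p ran from 0.00234 to 0.977. In KO against WT, the contrast it was chosen on, the fitted log2 fold change was -2.01. Between MUT and KO no difference in Pappa2 was called (log2 fold change 0.27, SE 0.34, 95% interval -0.47 to 1.02, edgeR adjusted p = 0.982). That value was 0.05 without MUT replicate 2, 0.75 without MUT replicate 3 and -0.69 over libraries labelled male, none of them called.

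Within WT, Pappa2 was lowest in the library that differed from the rest in age, labelled sex and striatal content. WT replicate 1, labelled female, from 287 days and with a striatal level of -0.92, had 2.09 CPM. WT replicates 2, 3 and 4, labelled male, had 4.95, 4.15 and 5.78 CPM at striatal levels of 0.78, 1.72 and 2.69. Over the 12 libraries Pappa2 and the striatal level had a Pearson r of 0.787 and a Spearman's rho of 0.448. Other marker levels also moved with Pappa2, some of them more closely by rank. For subplate and claustrum markers r was 0.777 and rho 0.741, and for astrocyte markers -0.602 and -0.671. For hippocampal markers they were -0.67 and -0.455. Subplate and claustrum markers were at -0.47 to 0.03 in MUT, -0.23 to 0.06 in KO and -0.05 to 0.53 in WT. They were highest in WT replicates 2 and 4, while WT replicate 3 was at -0.05, within the ranges of MUT and KO. This list shares Drd1 with the striatal list, so the lists are not fully separate. Hippocampal markers were at -0.469 to 0.995 in MUT, -0.14 to 0.85 in KO and -1.11 to -0.07 in WT. The part of subplate and claustrum, hippocampal and astrocyte markers in the Pappa2 values was not tested. Among libraries from under 310 days of age, where WT replicate 1 is the only WT library, Pappa2 was 0.725 to 1.27 CPM in MUT and 0.610 to 1.47 CPM in KO. In that subset the fitted log2 fold changes were -1.22 in MUT and -1.37 in KO, against -1.73 and -2.01 over all libraries. With the striatal level as a term they were -1.47 in MUT and -1.69 in KO, and with sex and age as terms -1.30 and -1.44. KO replicate 3 had the highest striatal level of the null libraries (0.23) and the lowest Pappa2 (0.610 CPM, from 11 reads). MUT replicate 2, in turn, was highest within MUT both in striatal level (-0.38) and in Pappa2 (1.27 CPM). The WT libraries over 310 days are the same 3 that are high in striatal markers, and the same 3 that are labelled male, so age, labelled sex and striatal content cannot be told apart within WT.

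**Figure D1:**
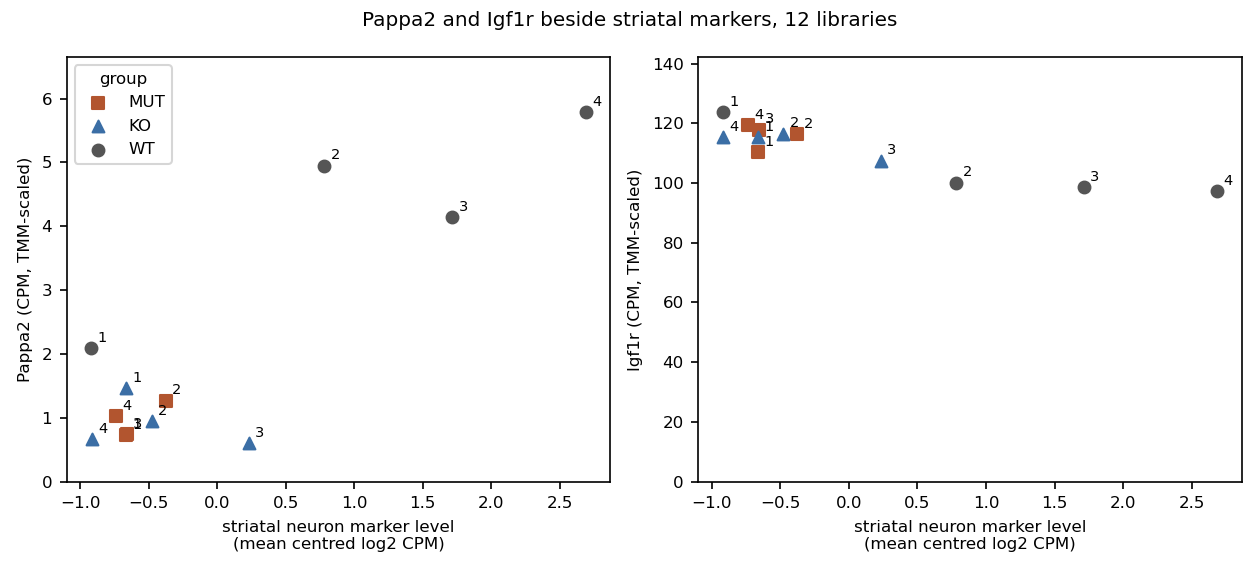
CPM of Pappa2 (left) and Igf1r (right) on the y axis against the striatal neuron marker level (mean centred log2 CPM) on the x axis, 1 point per library, numbered by replicate and marked by group (MUT, KO, WT). WT replicates 2 to 4 lie at the right with Pappa2 of 4.15 to 5.78 CPM and Igf1r of 97.4 to 100.1 CPM, while WT replicate 1 lies at the left with 2.09 and 124 CPM.

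Genes whose log2 CPM ran most like that of Pappa2 over the 12 libraries were G3bp2 (Pearson r = 0.962), Marchf6 (0.959), Neto2 (0.959), Zfand5 (0.948) and Aff3 (0.942), out of 14118 named genes searched. The likeness is a description: 12 libraries in 3 groups share the same step between WT and the null groups. Within the 8 null libraries r was 0.586 for G3bp2, 0.56 for Marchf6, 0.636 for Neto2, 0.922 for Zfand5 and 0.479 for Aff3. Spearman's rho over the 12 libraries was 0.979 for Zfand5 and 0.86 to 0.895 for the other 4. Marchf6 is a ubiquitin ligase of the endoplasmic reticulum, Neto2 an auxiliary subunit of kainate receptors, and G3bp2 a stress granule protein.

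Pappa (Entrez 18491, chromosome 4, 65124174 to 65357509, plus strand), the paralog that cuts Igfbp4, was at the edge of detection. Its reads numbered 31, 12, 9 and 3 in MUT, 7, 11, 10 and 4 in KO, and 5, 8, 2 and 7 in WT. The highest library was MUT replicate 1, which was also high in choroid plexus, meningeal and pericyte markers, and the 3 groups overlapped. Its log2 fold change in MUT against WT was 1.21 (SE 0.66, 95% interval -0.23 to 2.65, edgeR adjusted p = 0.522), and it was 0.67 without MUT replicate 1. At this depth no difference in Pappa was detectable. KO against WT gave 0.48 (SE 0.65).

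Of the ligands, Igf1 (Entrez 16000, chromosome 10, 87859056 to 87937047, plus strand) measured 13.2, 11.1, 9.97 and 9.48 CPM in MUT, 9.24, 7.60, 9.31 and 8.26 CPM in KO, and 9.84, 10.7, 8.20 and 9.00 CPM in WT. All 4 MUT libraries lay above all 4 KO libraries, while WT overlapped both. In MUT against KO the log2 fold change was 0.32 (SE 0.12, 95% interval 0.05 to 0.59), which did not pass after adjustment (edgeR adjusted p = 0.795). Of all tested genes, 3.37% lay higher in every MUT than in every KO library. Without MUT replicate 1 the value was 0.23, and over the 25 other settings it stayed between 0.23 and 0.39. The level of 12 microglial markers was -0.05 to 0.08 in MUT, -0.004 to 0.04 in KO and -0.21 to 0.08 in WT. In MUT against WT Igf1 was at 0.16 (SE 0.13, adjusted p = 0.663), and in KO against WT at -0.16 (SE 0.12). Genes most like Igf1 over the 12 libraries were Olfml2a (Pearson r = 0.887, Spearman's rho 0.916), Ddhd1 (0.883, 0.797), Sigirr (0.86, 0.818), Fut9 (0.859, 0.776) and Hecw1 (0.85, 0.839).

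Igf2 (Entrez 16002, chromosome 7, 142650768 to 142661035, minus strand) varied more between libraries of a group than between groups. It measured 117, 40.8, 33.8 and 44.5 CPM in MUT, 31.5, 33.0, 98.5 and 25.6 CPM in KO, and 33.8, 32.6, 53.2 and 56.4 CPM in WT. The highest libraries, MUT replicate 1 and KO replicate 3, were the 2 highest in choroid plexus markers. Ttr (transthyretin, the leading choroid plexus transcript) measured 1283 CPM in MUT replicate 1 and 1838 CPM in KO replicate 3, and 597 CPM in WT replicate 4, against at most 42.7 CPM elsewhere. All 16 meningeal fibroblast markers were tested, and their level was 1.11 in MUT replicate 1 and 0.28 in KO replicate 3, against -0.50 to 0.15 in the other 10 libraries. WT replicate 4, high in choroid plexus markers, had a meningeal level of -0.23. WT replicate 3, with 53.2 CPM of Igf2, had the lowest choroid plexus level of all libraries (-1.52). Over the 12 libraries Igf2 had a Pearson r of 0.849 with the choroid plexus level (Spearman's rho 0.524). With meningeal markers these were 0.78 and 0.601, and with pericyte and smooth muscle markers 0.818 and 0.741. In MUT against WT the fitted value of Igf2 was 0.16 with the choroid plexus level as a term and -0.58 with the meningeal level, neither of them called (edgeR adjusted p = 0.819 and 0.423). It was 0.91 with the striatal level and 1.05 with sex and age (adjusted p = 0.753 and 0.821), and in KO against WT these terms gave 0.61 and 1.05. What part these cells have in the Igf2 values was not tested further.

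The group means of Igf2 were 59.0 ± 38.8 CPM in MUT, 47.1 ± 34.4 CPM in KO and 44.0 ± 12.5 CPM in WT (SD, n = 4 each). Igf2 had a log2 fold change of 0.06 in MUT against WT (SE 0.52, 95% interval -1.07 to 1.19, edgeR adjusted p = 0.971) and 0.20 in MUT against KO (SE 0.45, 95% interval -0.78 to 1.18, adjusted p = 0.995). Intervals this wide do not show that the groups are alike. In MUT against KO the value was 0.94 without KO replicate 3 and -0.28 without MUT replicate 1. Without the 3 libraries high in choroid plexus markers it was 0.45 (adjusted p = 0.964), and MUT against WT was 0.04. In KO against WT the value was -0.14 (SE 0.48), and -0.41 without those 3 libraries. The genes most like Igf2 were Cgnl1 (Pearson r = 0.955, Spearman's rho 0.769), Lepr (0.945, 0.867), Slc13a4 (0.944, 0.944), Sema3b (0.941, 0.776) and Serping1 (0.94, 0.916). Within the 8 null libraries r was 0.938 to 0.975 for these 5, and Slc13a4 is itself on the meningeal list. Exons of Igf2 share 98 bases with the antisense gene Igf2os, which held 2 to 11 reads a library.

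**Figure D2:**
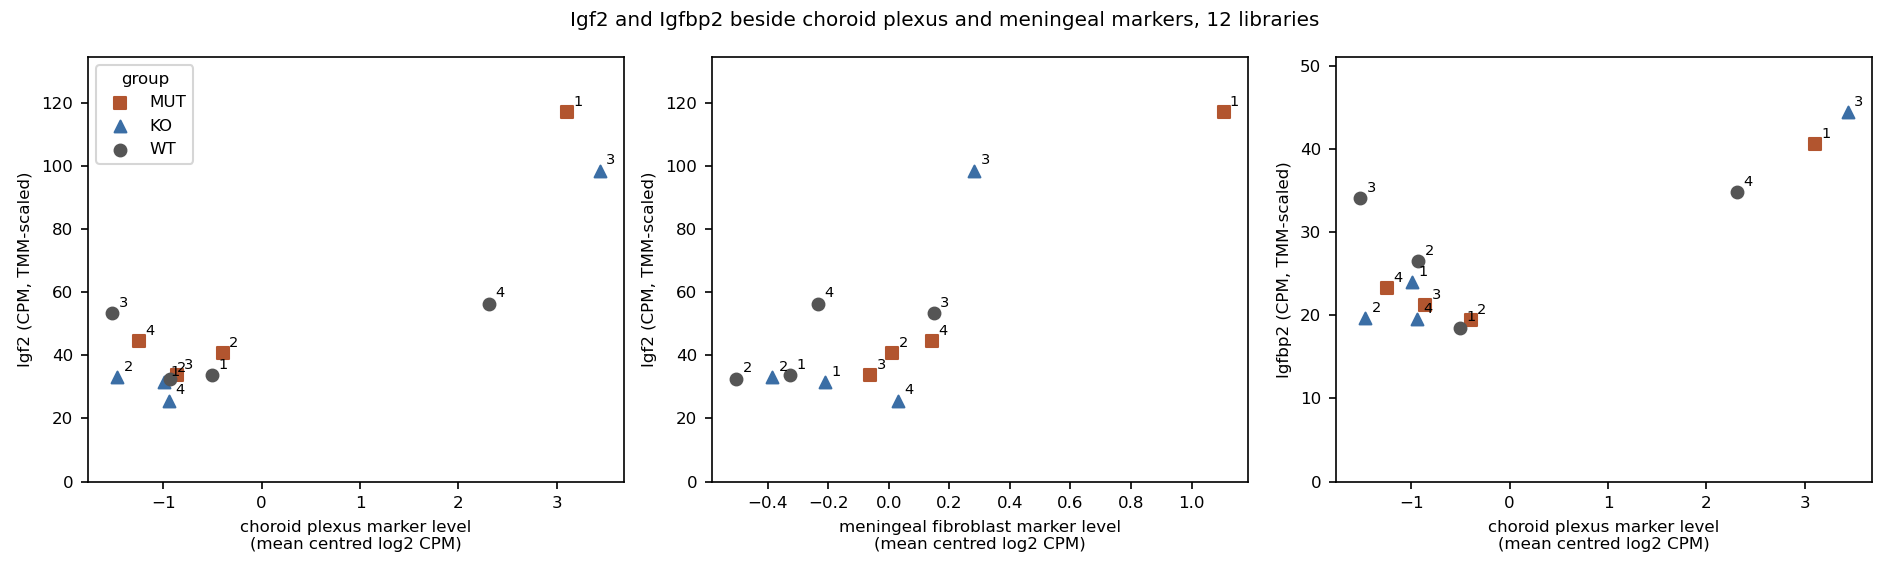
CPM of Igf2 (left and middle) and Igfbp2 (right) on the y axis against choroid plexus or meningeal fibroblast marker levels (mean centred log2 CPM) on the x axis, 1 point per library, numbered by replicate (MUT, KO, WT). MUT replicate 1 and KO replicate 3 are highest on both genes and lie at the right in the choroid plexus panels, with Igf2 at 117 and 98.5 CPM.

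Igf1r (Entrez 16001, chromosome 7, 67952257 to 68233667, plus strand), the signalling receptor, measured 110.4, 116, 118 and 119 CPM in MUT, 115, 117, 107.5 and 115 CPM in KO, and 124, 100.1, 98.5 and 97.4 CPM in WT. WT replicate 1 had the highest value of the 12 libraries and WT replicates 2 to 4 the lowest. The log2 fold change in MUT against WT was 0.11 (SE 0.07, 95% interval -0.04 to 0.27, edgeR adjusted p = 0.584). Without WT replicate 1 it was 0.27 and passed (edgeR adjusted p = 0.0127), in a fit where 1066 of 15480 genes passed. That fit set MUT against WT replicates 2 to 4 alone, all from 375 days. Without WT replicate 1, KO against WT moved to 0.23, against 0.10 with that library. Among libraries from under 310 days, where WT replicate 1 is the only WT library, the values were -0.10 in MUT and -0.14 in KO, which set the null libraries against that single high library. With the striatal level as a term the values were -0.01 in MUT and -0.03 in KO. The order of the WT libraries thus ran opposite to that of Pappa2 at its extremes: replicate 4 was highest in Pappa2 and lowest in Igf1r, and replicate 1 the reverse. MUT and KO differed by 0.01 (SE 0.07, 95% interval -0.14 to 0.16, adjusted p = 0.997).

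Igf2r (Entrez 16004, chromosome 17, 12682406 to 12769706, minus strand) was the steadiest member. It measured 53.0 to 58.3 CPM in MUT, 47.9 to 58.6 CPM in KO and 53.4 to 57.8 CPM in WT, so that the highest library held 1.22 times the lowest. Igf2r had a log2 fold change of -0.07 in MUT against WT (SE 0.06, 95% interval -0.21 to 0.06, edgeR adjusted p = 0.681), 0.02 in MUT against KO (SE 0.06, adjusted p = 0.995) and -0.09 in KO against WT (SE 0.06). An antisense gene without a symbol shares 823 exon bases with it and held 0 to 2 reads a library.

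Among the binding proteins, Igfbp5 (Entrez 16011, chromosome 1, 72858065 to 72874865, minus strand), a substrate of Pappa2, was among the most abundant members. It measured 254, 187, 204 and 174 CPM in MUT, 203, 161, 235 and 194 CPM in KO, and 166, 143, 121 and 147 CPM in WT. Every MUT library lay above every WT library, and KO replicate 2 fell below WT replicate 1. The means were 205 ± 35.2 CPM in MUT, 198 ± 30.4 CPM in KO and 144 ± 18.4 CPM in WT (SD, n = 4 each). Igfbp5 had a log2 fold change of 0.42 in MUT against WT (SE 0.13, 95% interval 0.13 to 0.71, edgeR adjusted p = 0.372), which did not pass. It was 0.01 in MUT against KO (SE 0.13, 95% interval -0.27 to 0.28, adjusted p = 0.998) and 0.42 in KO against WT (SE 0.13). The values stayed above 0 in 25 of 25 other settings in both comparisons with WT, from 0.31 to 0.57 in MUT and from 0.32 to 0.50 in KO. None of the 25 called it in MUT against WT (lowest adjusted p = 0.105), and calls in KO against WT are not given. The highest libraries were again MUT replicate 1 and KO replicate 3, and without the 3 libraries high in choroid plexus markers the values were 0.37 in MUT and 0.38 in KO. Astrocyte markers, all 12 tested, were at -0.004 to 0.17 in MUT, -0.11 to 0.06 in KO and -0.11 to -0.03 in WT, highest in MUT replicate 1. Hippocampal and striatal levels, given above, also differed between the null and WT libraries, and the part of these markers in the Igfbp5 values was not tested beyond the striatal term (0.41 in MUT).

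Igfbp2 (Entrez 16008, chromosome 1, 72824480 to 72852474, plus strand) lies beside Igfbp5 and showed another order. It measured 40.6, 19.5, 21.3 and 23.3 CPM in MUT, 24.0, 19.7, 44.4 and 19.5 CPM in KO, and 18.5, 26.5, 34.1 and 34.8 CPM in WT. As for Igf2, KO replicate 3 and MUT replicate 1 were highest. Over the 12 libraries Igfbp2 had a Pearson r of 0.773 with the choroid plexus level (Spearman's rho 0.315). With pericyte and smooth muscle markers these were 0.853 and 0.783, and with endothelial markers 0.837 and 0.804. With the choroid plexus level as a term, the log2 fold change of Igfbp2 was -0.13 in MUT against WT and 0.007 in MUT against KO. With the meningeal level it was -0.63 and -0.42, and with the striatal level 0.42 and -0.01. None of these was called. The part of pericyte, smooth muscle and endothelial markers in the Igfbp2 values was not tested. WT replicate 1 was lowest, and WT replicates 2 to 4 lay above the other null libraries. The log2 fold change was -0.20 in MUT against WT (SE 0.35, 95% interval -0.97 to 0.57, edgeR adjusted p = 0.859) and -0.06 in MUT against KO (SE 0.31, adjusted p = 0.996). In MUT against WT it was -0.65 without WT replicate 1 and 0.72 with sex and age as terms, neither of them called (adjusted p = 0.292 and 0.821). The KO against WT value was -0.14 (SE 0.33).

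Igfbp3 (Entrez 16009, chromosome 11, 7206086 to 7213923, minus strand), the other known substrate of Pappa2 and the main carrier of IGFs in blood, was low and even. It measured 6.56 to 9.68 CPM in MUT, 8.02 to 10.2 CPM in KO and 8.80 to 11.2 CPM in WT. Igfbp3 had a log2 fold change of -0.12 in MUT against WT (SE 0.15, 95% interval -0.43 to 0.20, edgeR adjusted p = 0.795) and 0.004 in MUT against KO (SE 0.14, adjusted p = 0.998), and -0.12 in KO against WT (SE 0.14). Igfbp6 (Entrez 16012, chromosome 15, 102144186 to 102149512, plus strand), which prefers Igf2, measured 42.1, 36.5, 27.8 and 33.0 CPM in MUT. It measured 34.6, 41.2, 31.3 and 36.8 CPM in KO and 32.8, 41.6, 55.0 and 37.6 CPM in WT. WT replicate 3 was highest and the groups overlapped. Igfbp6 had a log2 fold change of -0.21 in MUT against WT (SE 0.18, 95% interval -0.60 to 0.18, edgeR adjusted p = 0.676), -0.02 in MUT against KO (SE 0.16, adjusted p = 0.997) and -0.20 in KO against WT (SE 0.16). The MUT against WT value was 0.05 without MUT replicate 3, -0.08 without WT replicate 3 and -0.42 without WT replicate 1, none of them called.

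**Figure D3:**
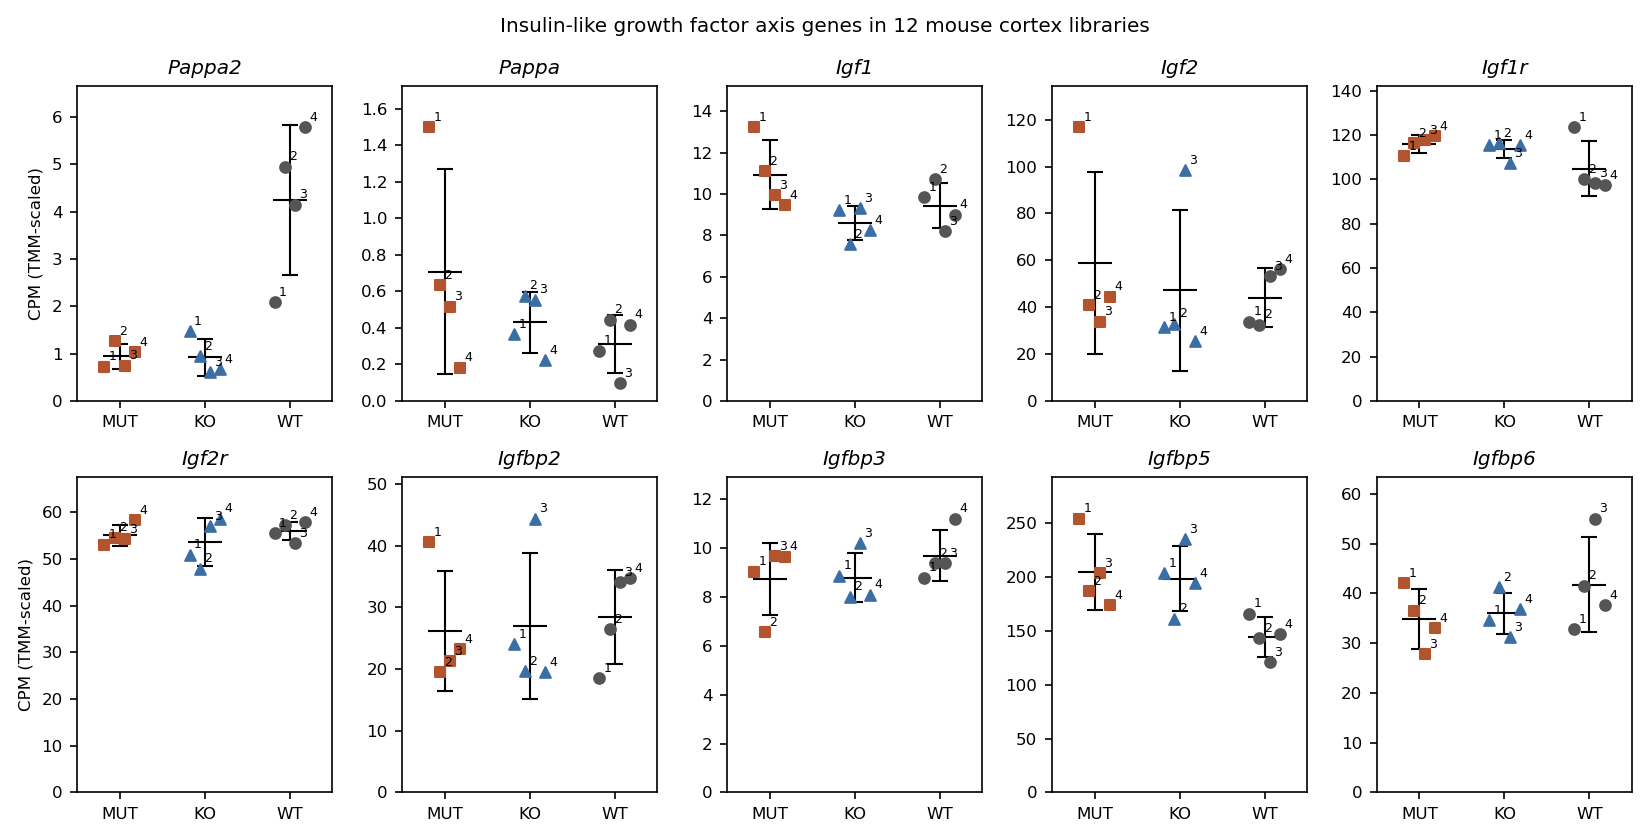
CPM of the 10 members on the y axis, each with its own scale from 0, in MUT, KO and WT on the x axis, 1 point per library numbered by replicate, with the mean and SD of 4 libraries in black. Pappa2 in WT lies at 2.09 to 5.78 CPM, above every MUT and KO library, and Igf2 has a single high library in MUT (117 CPM) and in KO (98.5 CPM).

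Counted together, in MUT against WT 0 of the 10 members passed an adjusted p of 0.05 by edgeR, and 2 had an unadjusted p below 0.05, Pappa2 and Igfbp5. DESeq2 called 1 of them, Pappa2, and limma-voom called 0. Over all 15298 tested genes DESeq2 called 52 in this comparison and limma-voom 2. Pappa2 was chosen on a contrast with the same WT libraries. Of all tested genes, 0.0196% were called by edgeR in this comparison (0.0131% lower and 0.00654% higher), and 11.2% had an unadjusted p below 0.05. Pappa2 was lower and Igfbp5 higher with no overlap between the 4 MUT and 4 WT libraries, against 3.71% of all genes lower and 3.38% higher in that way, 7.09% in all. In MUT against KO 0 members were called by edgeR, DESeq2 or limma-voom, and edgeR called 0.00654% of all genes. By edgeR 1 member (Igf1) had an unadjusted p below 0.05, as did 5.75% of all tested genes. Igf1 was the 1 member without overlap there, where 5.22% of all genes had none (3.37% higher and 1.85% lower). For KO against WT no call is given for the members, since Pappa2 was chosen on that contrast. Over all genes 0.471% were called there (0.327% lower and 0.144% higher), and 9.11% had no overlap (4.82% lower and 4.29% higher). The median log2 fold change over the 10 members was -0.005 in MUT against WT, 0.01 in MUT against KO and -0.13 in KO against WT. Over all tested genes it was 0.004, -0.004 and 0.005 in the same order of comparisons.

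**Figure D4:**
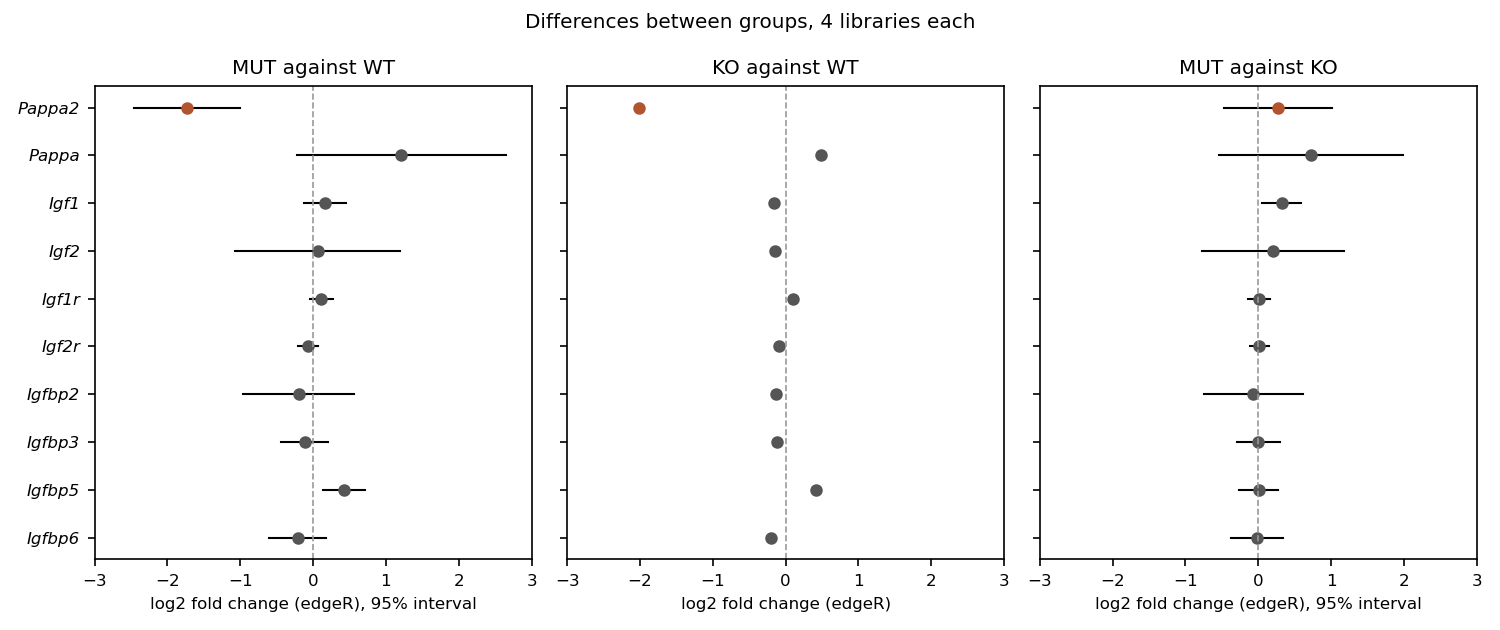
Fitted log2 fold change (x axis) of each member (y axis) in MUT against WT, KO against WT and MUT against KO, 4 libraries a group, with lines for the 95% interval in the comparisons with MUT and none for KO against WT, the contrast Pappa2 was chosen on. Pappa2 lies at -1.73 in MUT against WT and at 0.27 in MUT against KO, while Igf2r lies at -0.07, -0.09 and 0.02 over the 3 panels.

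Compared per length, as RPKM (CPM per kilobase of exon), the members spanned a wide range. Mean RPKM over the 12 libraries was 31.2 ± 6.59 for Igfbp5, 29.1 ± 5.44 for Igfbp6, 20.4 ± 6.76 for Igfbp2, 11.8 ± 6.77 for Igf2 and 9.31 ± 0.733 for Igf1r (SD, n = 12). It was 6.15 ± 0.363 for Igf2r, 3.71 ± 0.482 for Igfbp3, 1.24 ± 0.194 for Igf1, 0.237 ± 0.215 for Pappa2 and 0.0437 ± 0.0328 for Pappa. Within libraries, Igfbp5 exceeded Igfbp6 in 8 of 12 and Igf2 exceeded Igf1r in 5 of 12, so the pooled order of these neighbours did not hold in every library. Igfbp5 exceeded Igfbp6 in 7 of 8 null libraries and in 1 of 4 WT libraries. Mean RPKM was 35.0 for Igfbp5 and 27.0 for Igfbp6 in MUT, 33.9 and 27.9 in KO, and 24.6 and 32.4 in WT. Igfbp6 exceeded Igfbp2 in 11 of 12, and Pappa2 exceeded Pappa in 11 of 12. Each other neighbouring pair kept its order in 12 of 12 libraries. Binding protein transcripts thus exceeded ligand transcripts for Igfbp2, Igfbp5 and Igfbp6, and both proteases lay below every other member.

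A further 27 genes of the axis were listed, and 19 of them passed the low-count filter. They include Insr, the insulin receptor, Igfbp4, the substrate of Pappa, and Stc1 and Stc2, the stanniocalcins that inhibit pappalysins. None of the 19 passed the threshold in any of the 3 comparisons, by edgeR, DESeq2 or limma-voom. By edgeR 2 of the 19 had an unadjusted p below 0.05 in MUT against WT, and 0 did in MUT against KO and in KO against WT. Of all tested genes, 11.2%, 5.75% and 17.9% had such a p in these comparisons, in the same order. Chosen after their values were seen, these 2 were Socs2, a feedback inhibitor of growth hormone signalling (log2 fold change -0.24, SE 0.10, edgeR adjusted p = 0.429), and Irs1, an adaptor of insulin and IGF receptors (0.19, SE 0.08, adjusted p = 0.409). In MUT against WT the 19 ran from -0.64 (Igf2bp2) to 0.33 (Stc2), with 9 above 0 and 10 below and a median of -0.003. In MUT against KO they ran from -0.34 (Igf2bp2) to 0.83 (Insrr), with a median of -0.01. Igfbp4 averaged 91.0 ± 6.43 CPM in MUT, 91.5 ± 6.30 CPM in KO and 91.6 ± 18.2 CPM in WT (SD, n = 4 each). Stc1 averaged 2.32 ± 0.618 CPM in MUT, 2.03 ± 0.212 CPM in KO and 3.01 ± 0.976 CPM in WT. The insulin gene Ins1 had no read in any library, and Ins2, Igfbp1, Igfals, Igfbpl1, Igf2bp1, Igf2bp3 and the imprinted RNA H19 were too low to be tested.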

How the data were processed

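Gene-level counts were deposited by the authors as 1 table of 12 columns, beside Entrez IDs, exon coordinates and exon length per the file headers. Libraries were made with a directional kit, per the labels' protocols. The submitters' processing notes name mm10, R 4.1.2 and DESeq2 1.34.0. Aligner, counter and strand use are not named there, so antisense reads cannot be separated with certainty. From the counts, genes were kept with filterByExpr by group (minimum count 10, 15 in total) and scaled by TMM. edgeR 4.0.16 under R 4.3.3 fitted group and labelled sex over all 12 libraries, which left 8 residual degrees of freedom. Quasi-likelihood p values were adjusted by Benjamini-Hochberg over 15298 genes, with a threshold of 0.05. The labels do not say that libraries came from separate animals, so p values cover the spread among libraries, which may be technical. All 66 pairs of libraries differed by more than sampling noise, with a chi-square of at least 3.55 times its degrees of freedom.

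Alternatives were RLE, library size alone, 2 filters, DESeq2 1.42.0, limma-voom (limma 3.58.1), other covariates, subsets and each library left out. The meningeal level as a term was added after seeing the data. A marker level is the mean, over the tested genes of a list, of log2 CPM after subtracting each gene's mean (prior count 2). RPKM divides CPM by the deposited exon length. Promoter windows come from RefSeq. The fit was tested on simulated counts with the same spread setting for every gene and no differences in age, sex or tissue content. That test therefore does not cover such differences between these libraries. The members, the lists and the rule for named genes (the members, pathway genes past the threshold, and the 5 genes most like Pappa2, Igf1 and Igf2) were chosen with earlier results of these data known.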

Additional observations from a re-analysis of the deposited data

Results flagged for a closer look

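In groups of 4 libraries, 1 library stood far from the other 3 in 4 of the 30 sets of member values, and in 4 of the 36 sets of marker levels. Chance alone flags about 1 in 20 such sets. Igf2 was at 117 CPM in MUT replicate 1, where the next MUT library had 44.5 CPM, and at 98.5 CPM in KO replicate 3, where the next KO library had 33.0 CPM. Igf1r was lowest in KO replicate 3, at 107.5 CPM against 115 CPM in the nearest KO library. It was highest in WT replicate 1, at 124 CPM against 100.1 CPM in the nearest WT library.

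Of the marker levels (mean centred log2 CPM), choroid plexus stood out at 3.44 in KO replicate 3, where the next KO library was at -0.94. Pericyte and smooth muscle markers stood at 0.57 in MUT replicate 1, with the next MUT library at -0.08, and thalamic neuron markers at 0.42 in that library, with the next at -0.03. Endothelial markers were lowest in WT replicate 1, at -0.21, with the nearest WT library at 0.12. The part of these markers in the member values was not tested beyond the fits that carry a marker level as a term.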

How the results depend on the processing

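In KO against WT 72 genes were called. The count was 22 with library size alone, 39 without a low-count filter, 647 by DESeq2, 313 without the sex term and 302 with the choroid plexus level as a term. It was 2 with sex and age, 2 with the replicate block and 1 with the striatal level. It was 3 with only the 2 groups compared, 2 labelled female, 1078 labelled male, 9 under 310 days and 2 without the 3 libraries high in choroid plexus markers. Leaving out each library gave 1 to 1635, the highest without WT replicate 1. In MUT against WT 3 genes were called, with 52 by DESeq2, 7 without the sex term, 270 labelled male, and 2 to 1066 with each library left out (1066 without WT replicate 1). In MUT against KO 1 gene was called, with 15 by DESeq2, 32 with only the 2 groups, 31 under 310 days, and 1 to 2 with each library left out. The cause was not tested.

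Pappa2 in MUT against WT was past the threshold by DESeq2 (-1.74), without the sex term (-2.16) and labelled male (-2.72, a single MUT library, assumed to vary like the other groups). With each library left out it ran from -2.12 (without WT replicate 1, where it passed) to -1.18. It was below 0 in 24 of 24 other settings. In KO against WT, the contrast Pappa2 was chosen on, it ran from -2.26 to -1.37. MUT against WT shares the WT libraries with that contrast, so the steady sign is not independent of the choice in either. Same-numbered libraries did not deviate together (r from -0.377 to 0.289 over 12 pairs, 1 of them over 0.1), and 2 of 12 libraries correlated best with their own number. With the replicate block Pappa2 was at -1.71 in MUT against WT and 0.28 in MUT against KO, and 2 and 1 genes were called there. Of the 30 member results, 20 changed sign in some setting, none of them past the threshold on both signs. The filter of at least 50 counts in 4 libraries left no value for Pappa2 or Pappa. The meningeal level as a term, chosen after seeing the data, changed no member's call. Pappa2 and Pappa rest on 446 and 109 reads over the 12 libraries, which limits both.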
